A study of Mus musculus with 2 samples.

Results

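Erbb4, Cxcr4 and Ackr3 encode cell surface receptors known for guiding cortical interneurons out of the ventral forebrain, and they were taken by gene symbol as 3 of the 18088 genes of the expression table. The table covered the medial ganglionic eminence (MGE), the ventral forebrain region that produces cortical interneurons, pallidal neurons and basal forebrain cholinergic neurons. Tissue was dissected from CD-1 mouse embryos at stage E11.5 and labelled for the enhancers hs192 and hs799, with no other treatment named. Cell suspensions were tagged with barcodes by MULTI-seq and run together on the 10x Chromium platform, giving an RNA library and a library of the tags, which are the 2 deposited samples. The barcode list named 6 sample barcodes, of which 4 marked GFP-gated cells (2 for each enhancer) and 2 marked ungated cells (1 for each enhancer). No assignment of cells to these barcodes was used here, so cells could not be split by enhancer or gate. All cells were therefore described as 1 sample with no replicates, and no test between conditions was possible. The share of GFP-gated cells in the pool was not known, so the cluster sizes do not describe the composition of the tissue.

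ErbB4 is a receptor tyrosine kinase that binds neuregulins and some other EGF-family ligands. In the embryonic forebrain, neuregulin 1 in the ventral telencephalon and the cortex attracts ErbB4-bearing interneurons migrating from the MGE. CXCR4 is a G protein-coupled receptor for the chemokine CXCL12, which holds migrating interneurons in their tangential streams. ACKR3, also named CXCR7, binds the same chemokine, signals mainly through arrestins and takes CXCL12 up, which keeps its concentration in check and preserves CXCR4 on the cell surface. ErbB4 is also kept by many parvalbumin interneurons into adulthood, where it acts at synapses.

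All 3 genes lay on mouse chromosome 1 and were protein coding in the GENCODE annotation of build GRCm38. Erbb4 (ENSMUSG00000062209) spanned positions 68032186 to 69108059 on the minus strand, a gene of 1075874 bp with up to 28 exons. Cxcr4 (ENSMUSG00000045382) spanned 128588199 to 128592293 on the minus strand with 2 exons. Ackr3 (ENSMUSG00000044337) spanned 90203980 to 90216751 on the plus strand with 2 to 3 exons. Each matched 1 promoter in the RefSeq promoter table of build GRCm38.p6. The 250 bases before each start site are shown because the receptors were found in different cells, and so that their core promoters can be compared. They lie at chr1:69108060-69108309 (minus strand, Erbb4), chr1:128592300-128592549 (minus strand, Cxcr4) and chr1:90203730-90203979 (plus strand, Ackr3), and capitals mark, on either strand, the GC box GGGCGG and, as the element of the core promoter that positions the polymerase, the TATA box TATAAA.
Erbb4: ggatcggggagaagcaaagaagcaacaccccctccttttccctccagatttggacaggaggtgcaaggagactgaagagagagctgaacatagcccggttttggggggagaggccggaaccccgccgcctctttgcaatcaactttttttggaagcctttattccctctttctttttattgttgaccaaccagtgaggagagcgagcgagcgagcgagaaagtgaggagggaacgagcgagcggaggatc
Cxcr4: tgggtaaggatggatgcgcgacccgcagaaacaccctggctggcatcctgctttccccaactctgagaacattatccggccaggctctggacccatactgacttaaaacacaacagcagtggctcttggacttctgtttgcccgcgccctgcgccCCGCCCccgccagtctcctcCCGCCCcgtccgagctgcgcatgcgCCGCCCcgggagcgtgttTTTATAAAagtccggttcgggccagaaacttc
Ackr3: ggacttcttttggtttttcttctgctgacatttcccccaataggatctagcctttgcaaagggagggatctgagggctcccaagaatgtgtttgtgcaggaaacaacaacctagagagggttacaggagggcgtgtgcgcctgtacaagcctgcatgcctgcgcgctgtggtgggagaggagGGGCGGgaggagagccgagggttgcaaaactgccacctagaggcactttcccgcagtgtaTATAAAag
The Erbb4 sequence held neither motif. The Cxcr4 sequence held 3 matches to the GC box and 2 to the TATA box, the latter overlapping on opposite strands, and the Ackr3 sequence held 1 match to each. Of 32851 promoter windows of this length, 32.7% held the GC box and 12.4% the TATA box. The core site of many homeodomain factors, TAATTA, was found in none of the 3 windows and in 4.84% of all windows. The E-box, CANNTG, was likewise found in none of the 3 and in 66.2% of all. The core site of the Notch effector RBPJ, TGGGAA, was in none of the 3 and in 21.6% of all. A match, or its absence, describes these letters only.

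The table held whole numbers from 0 to 1245 for 4001 cells, of which 3995 remained after 6 called doublets were removed. Summed values per cell ran only from 10475 to 14196, so the values were read as depth-adjusted scores and not as molecule counts. Levels are therefore given per 10000 summed values. Shares are cells with a value of at least 1 after each cell was thinned to 10000, with the exact 95% binomial (Clopper-Pearson) interval, which covers the counting of cells within this library only. Where no cell had a value, the limit given is 3 cells over the number of cells, which is below the upper end of the exact interval. Clustering without the 3 genes gave 17 clusters, numbered by size, of which 11 took a name from marker genes. Clusters 1, 4 and 8 were ventricular zone progenitor-like (1086 cells, Hes5 and other radial glial genes) and clusters 7, 12 and 14 subventricular zone progenitor-like (544 cells). Cluster 2 was GABAergic MGE neuron-like (428 cells, led by Sst, Calb1 and Maf). Clusters 5 and 10 were cholinergic neuron-like (540 cells, with Lhx8, Zic1 and Gbx1). Clusters 11 and 16 were like neurons of the lateral ganglionic eminence (LGE, 244 cells, Ebf1 and Isl1). The other 6 clusters, with 1153 cells, stayed unnamed. Among them, clusters 6 and 9 had Lhx8 levels of 11.3 and 10.3 per 10000, so the cholinergic class did not hold all Lhx8-high neurons. In 213 cells (5.32%) the value 1 was rare. These cells made up 11.9% of the cholinergic class and 4.21% of the GABAergic class, and their part in the shares was tested only by leaving them out.

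Erbb4 was found mainly in neurons, and among neuronal cells more often in those with Lhx6, the factor of MGE-derived interneurons. Not all clusters rich in Lhx6 had much Erbb4. Lhx6 was in 94.4% of cluster 2, 88.8% of cluster 3 and 89.9% of cluster 5, and Erbb4 in 73.8%, 15.2% and 23.9%. Erbb4 had a value in 918 of 3995 cells (22.98%), or 1035 without thinning, and reached 12 in a cell. Cluster 2, the GABAergic cluster, held 34.4% of the cells with an Erbb4 value among 10.7% of all cells. In cluster 2, 73.8% of cells (69.4 to 77.9) had an Erbb4 value, at a level of 1.72 ± 1.53 per 10000 (SD over 428 cells). This interval stood apart from that of every other cluster.

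**Figure D1:**
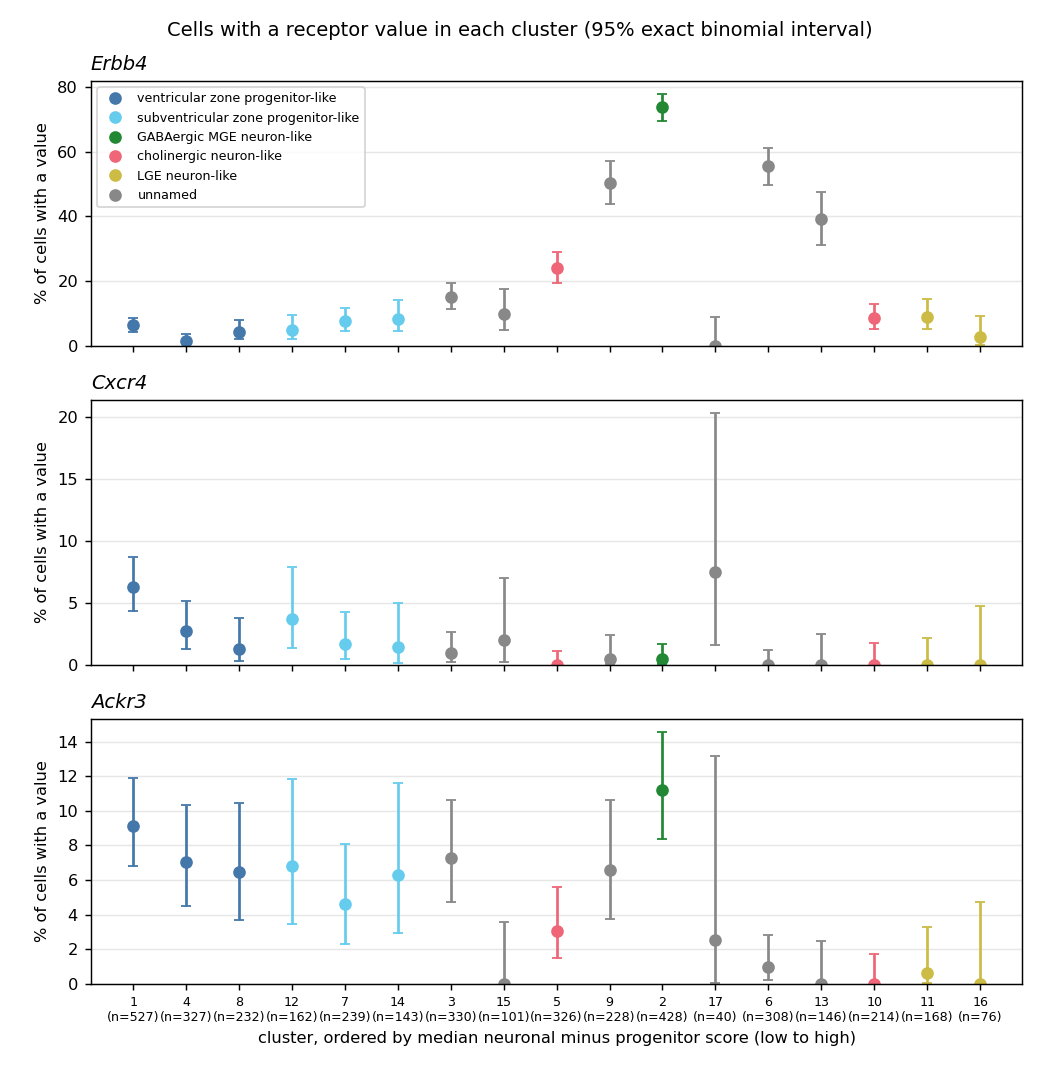
Share of cells with a value of Erbb4, Cxcr4 and Ackr3 in each of the 17 clusters, in percent, with 95% exact binomial intervals. Clusters run from progenitor to neuron by their median score, colours give the class, and n is the number of cells. Erbb4 peaks in cluster 2 at 73.8%, Cxcr4 is 0 in clusters 5, 6, 10, 11, 13 and 16, and Ackr3 is shared by the progenitor clusters and cluster 2.

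Below the GABAergic cluster came 3 unnamed neuronal clusters. Cluster 6, led by Nr4a2, Gbx1 and Pde3a and with high Lhx8, had Erbb4 in 55.5% of cells (49.8 to 61.2, level 1.0). Cluster 9, led by Kitl and Zic genes and also high in Lhx8, had it in 50.4% (43.8 to 57.1, level 0.802). Cluster 13, led by Gucy1a1 and Gabra2, had it in 39.0% (31.1 to 47.5, level 0.553). The intervals of clusters 6 and 9 overlapped, as did those of 9 and 13, while those of 6 and 13 did not. Cluster 13 in turn stood apart from the next cluster in the order, cluster 5.

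The cholinergic-like clusters parted from each other. In cluster 5, with Lhx8 among its leading genes, 23.9% of cells (19.4 to 28.9) had an Erbb4 value at a level of 0.383. In cluster 10, with Gbx2 among its leading genes, the share was 8.41% (5.06 to 13.0) and the level 0.110. Cells with a strong Lhx8 signal were thus found both with and without much Erbb4, since the Lhx8 level was 11.3 per 10000 in cluster 6, 10.9 in cluster 5 and 9.54 in cluster 10.

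From cluster 5 downward, each cluster overlapped the next in the order, in which 3 clusters lay between clusters 5 and 10. Cluster 3, led by St18 and Prox1, had a share of 15.2% (11.46 to 19.5), cluster 15, marked by Hmx2 and Hmx3, 9.90% (4.85 to 17.5), and LGE-like cluster 11 8.93% (5.08 to 14.3). The subventricular zone-like clusters ran from 4.94% to 8.39%. Among the ventricular zone-like clusters, cluster 1 had 6.26% (4.35 to 8.68) and cluster 4 only 1.53% (0.498 to 3.53), which did not overlap. Cluster 17, marked by Otp and Sim1, had a value in 0 of 40 cells, which allows a share of up to 7.50%.

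The neuronal shares can be set beside the low shares in progenitors and LGE-like cells, though no background level was estimated. The ventricular zone class had Erbb4 in 4.42% of cells (3.28 to 5.82) at a median of 4542 genes per cell, more than the 3871 of the GABAergic class, and the LGE class in 6.97% (4.11 to 10.9) at 4067. When the GABAergic class was cut into 3 equal parts by genes per cell, the share was 62.9%, 78.3% and 80.3% from fewest to most genes. The same cut of the ventricular zone class gave 1.66%, 4.42% and 7.18%, so the shares of both classes were higher in cells with more genes but their ranges stayed apart.

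Erbb4 values were also larger in the neurons that had them. In the GABAergic cluster 158 cells had an Erbb4 value of 3 or more, 66 a value of 2 and 118 a value of 1 before thinning. In the ventricular zone-like cluster 1 the counts were 0, 1 and 40. Most progenitor values were thus at the lowest step the table can hold.

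Between the GABAergic-like and cholinergic-like classes, the comparison named in the series title, 3.16% of the 11244 genes with a summed value of at least 30 were higher in the GABAergic class by 2-fold or more and 4.02% were lower. Both receptors that passed this minimum were higher, with log2 ratios of 2.66 for Erbb4 (levels 1.72 ± 1.53 and 0.272 ± 0.651, SD over cells) and 2.43 for Ackr3 (0.141 ± 0.368 and 0.0262 ± 0.176). Cxcr4 had a summed value of 2 in the GABAergic class, was listed at 0 in the cholinergic class, and got no ratio. The Erbb4 ratio depended on where the clustering drew its borders. Over 9 alternative settings it ran from 0.54 to 2.69, and in 4 of them (0.54, 0.70, 0.85 and 0.89) it was under 2-fold. Over 9 settings that count a value of at least 1, no thinning among them, the share with Erbb4 ran from 50.5% to 79.9% in the GABAergic class and from 12.6% to 44.8% in the cholinergic class, as other cells took the class names. The cluster with the highest Sst level had a share of 68.2% to 79.9% over these 9 settings, and of 46.7% at a value of at least 2. For Ackr3 the ratio ran from 1.83 to 3.18.

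Between the 968 cells of both MGE neuron classes and the ventricular zone class, 15.3% of the 13899 genes tested were higher in neurons by 2-fold or more and 26.1% were lower. Of the 3 receptors, Erbb4 was higher (log2 ratio 4.28), Cxcr4 was lower (log2 ratio -4.64, with a summed value of only 2 in the neurons) and Ackr3 was within 2-fold (log2 ratio 0.005). This Ackr3 ratio pools classes on both sides of the ventricular zone level of 0.0772, with 0.141 in the GABAergic and 0.0262 in the cholinergic class. The unnamed clusters 3, 6, 9 and 13, in which most cells had Lhx6, were not part of these neurons. The ranges over the 9 settings were 3.95 to 4.53 for Erbb4, -4.82 to -4.03 for Cxcr4 and -0.37 to 0.09 for Ackr3.

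Rows of other gene models within the Erbb4 gene were found in the same classes. The table had rows for 7 other gene models that lie inside Erbb4 on its strand, none overlapping an Erbb4 exon. The most frequent was Gm37735, at 68639424 to 68640829 on the minus strand of chromosome 1, about 468 kb after the Erbb4 start site. It had a value in 29.2% of GABAergic-like cells (24.9 to 33.8), 5.93% of cholinergic-like cells (4.09 to 8.26), 1.10% of ventricular zone-like cells (0.572 to 1.92) and 0.820% of LGE-like cells. Gm37769 followed at 16.6%, 4.44%, 0.921% and 0.820% of the same classes. Of cells with an Erbb4 value, 18.6% also had Gm37735 (16.2 to 21.3), against 3.67% of cells without (3.04 to 4.40). Reads from Erbb4 introns and from these models cannot be told apart in the table.

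**Figure D2:**
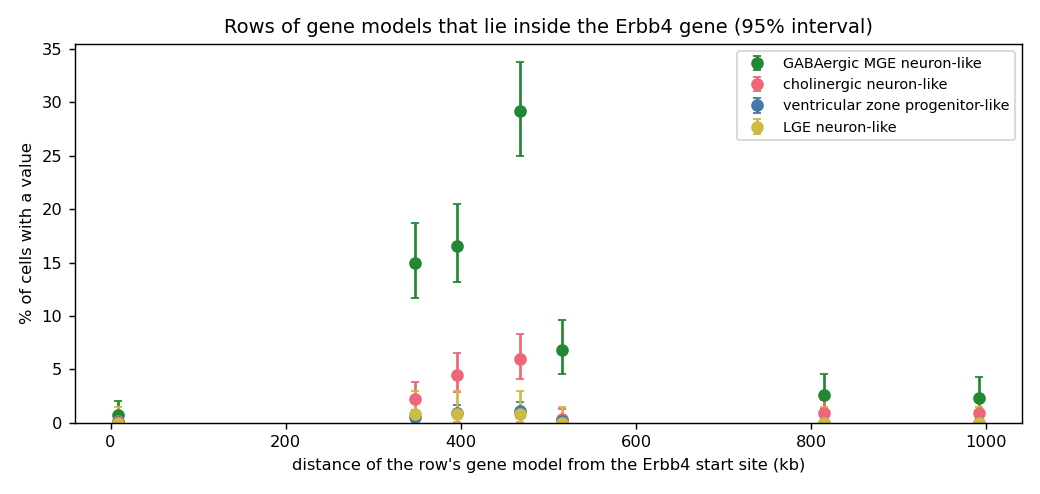
Share of cells with a value, in percent with 95% intervals, for the 7 gene models inside Erbb4, by distance from the Erbb4 start site in kb. Points of the GABAergic-like class lie highest throughout, from 0.701% to 29.2%.

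Cxcr4 is known from migrating interneurons, but most of the few cells with a value here were progenitor-like. Values this sparse cannot show whether the label of an interneuron migration receptor holds in this tissue. Cxcr4 had a value in 68 cells (1.70%), or 86 without thinning, of which 84 were at the value 1 and 2 at the value 2. The progenitor classes held 83.8% of the 68 cells but 40.8% of all cells. The ventricular zone class had Cxcr4 in 45 of 1086 cells (4.14%, 3.04 to 5.51) and the subventricular zone class in 12 of 544 (2.21%, 1.14 to 3.82). The GABAergic class had it in 2 of 428 cells (0.467%, 0.0566 to 1.68). The cholinergic class had it in 0 of 540, which allows a share of up to 0.556%, and the LGE class in 0 of 244.

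Cluster 1, whose leading genes are histones and the mitotic gene Prc1, held 33 of the 68 cells with Cxcr4 (48.5%). Its share was 6.26% (4.35 to 8.68), against 1.29% (0.267 to 3.73) in cluster 8, the mitotic cluster led by Cdc20 and Ccnb2. These intervals did not overlap, while that of cluster 4 (2.75%, 1.27 to 5.16) overlapped both. Cluster 17, the small Otp and Sim1 cluster, had Cxcr4 in 3 of 40 cells (7.50%, 1.57 to 20.4). In the 3 equal parts of the ventricular zone class, from fewest to most genes per cell, Cxcr4 was found in 2.49%, 4.14% and 5.80% of cells, with overlapping intervals. Cluster 1 also had the most genes per cell (median 4652, against 4371 in cluster 4 and 4407 in cluster 8), and the part of this in the Cxcr4 share was not tested.

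Ackr3 was found both in progenitors and in the GABAergic-like neurons. It had a value in 219 cells (5.48%), or 272 without thinning. The GABAergic cluster 2 had the highest share at 11.2% (8.39 to 14.6), followed by progenitor cluster 1 at 9.11% (6.79 to 11.9), each with 48 cells, and their intervals overlapped. By level, cluster 2 stood at 0.141 ± 0.368 and cluster 1 at 0.0872 ± 0.251 per 10000. Between 4.60% and 7.27% of cells had Ackr3 in the other ventricular and subventricular zone clusters and in the unnamed clusters 3 and 9.

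Most other neurons had little Ackr3. Cluster 5 had it in 3.07% of cells (1.48 to 5.57), cluster 6 in 0.974% (0.201 to 2.82) and LGE-like cluster 11 in 1 of 168. Clusters 10, 13, 15 and 16 had 0 cells with a value after thinning, which allows shares of up to 1.40%, 2.05%, 2.97% and 3.95%. Cluster 6, which ranked second for Erbb4, was thus among the low clusters for Ackr3, and its interval did not overlap that of cluster 9. Ackr3 in the GABAergic class did not move with the number of genes per cell, at 11.2%, 11.2% and 11.3% in the 3 equal parts from fewest to most genes. In the ventricular zone class the parts had 7.18%, 6.08% and 10.5%, and in the subventricular zone class 3.30%, 5.52% and 8.29%. The intervals overlapped within each class.

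To avoid cluster names, the 2592 cells with a neuronal score above their progenitor score were split by a value of Lhx6, required for MGE interneuron specification, and of Lhx8, required for cholinergic neurons. A range of this score is not a cell type, and 174 cells (4.36%) lay within 0.2 of the border. Erbb4 was found in 42.7% of the 372 cells with Lhx6 only (37.7 to 47.9) and in 38.5% of the 1589 cells with both factors (36.1 to 41.0). It was found in 17.4% of the 316 cells with Lhx8 only (13.4 to 22.0) and in 9.21% of the 315 cells with neither (6.25 to 13.0). The first pair overlapped and lay above the other gates. This pair stood apart with the score above its median (56.1% and 44.4%) and at a value of at least 2 (26.4% and 18.6%). The value of at least 2 was also asked of Lhx6 and Lhx8, so those gates held other cells. The lowest pair stood apart here, but overlapped with no doublet removal (17.7% and 11.1%), with no thinning (18.8% and 10.9%) and at a value of at least 2 (9.54% and 6.50%).

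Ackr3 followed the same order at lower shares, with 9.14% (6.41 to 12.5), 4.78% (3.79 to 5.95), 1.90% (0.700 to 4.09) and 0.952% (0.197 to 2.76). The gate with Lhx6 only stood apart from the gate with both, unlike for Erbb4 at the main setting. At a value of at least 2 the Ackr3 order turned and the intervals overlapped (0.259% of cells and 0.606%). Cxcr4 lay between 0.252% and 0.952% in the 4 gates, with 2 to 4 cells in each and overlapping intervals. Median genes per cell in the gates ran from 3794 to 4014, and the gate with neither factor had the most. Cells in which the value 1 was rare made up 12.03% of the gate with Lhx8 only and between 1.27% and 6.99% of the others.

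**Figure D3:**
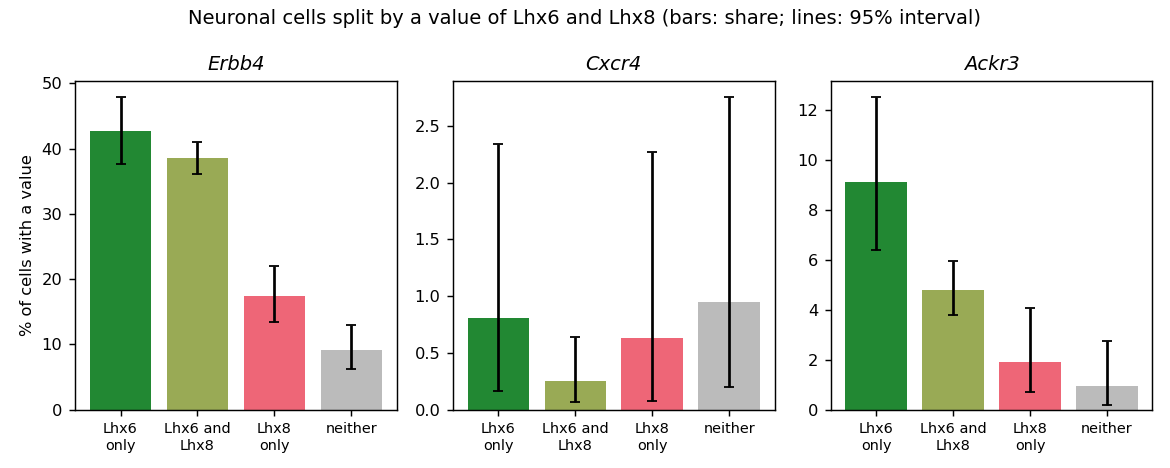
Share of neuronal cells with a value of each receptor, in percent, split by a value of Lhx6 and Lhx8. Bars are shares and lines are 95% intervals. Erbb4 falls from 42.7% with Lhx6 only to 9.21% with neither factor, Ackr3 from 9.14% to 0.952%, and Cxcr4 stays under 1% in all 4 gates.

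Ordering the cells by the score, in 10 bins of 399 or 400 cells, gave the receptors different profiles. Erbb4 was in 8.25% of cells in bin 1 (5.75 to 11.4), 3.0% in bins 2 and 3, and 5.50% in bin 4. It then climbed through 15.3% in bin 5 and 33.1% in bin 6 to a top of 54.4% in bin 8, and was at 16.0% in bin 10 (12.6 to 20.02). Bin 10 was made up to 38.6% of LGE-like and 29.6% of cholinergic-like cells. Lhx6, for comparison, was already in 44.3% of cells in bin 4 and 82.3% in bin 5, so cells with Lhx6 were frequent in bins where few had Erbb4. In bin 8, 59.2% of cells with Lhx6 had Erbb4 (53.9 to 64.5), against 22.6% of cells without (12.3 to 36.2).

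Cxcr4 was highest in bin 1, the most progenitor-like, at 7.0% (4.70 to 9.96), then 3.25%, 2.25% and 1.75% in bins 2 to 4. No later bin exceeded 1.003%, and bin 8, where Erbb4 was at its top, had 0 of 399 cells. Ackr3 was the flattest, between 3.01% and 8.75% from bin 1 to bin 9, and fell outside this range only in bin 10, at 0.501% (0.0608 to 1.80). In bin 5, the first in which most cells had Lhx6, Ackr3 was in 9.12% of the 329 cells with Lhx6 (6.24 to 12.8) and in 0 of the 71 without, which allows a share of up to 4.23%. The same split overlapped in bins 3, 4, 7, 8, 9 and 10. In bin 7 the shares were 5.75% and 1.96%, and in bin 10 Ackr3 was in 0 of 180 cells with Lhx6 and 2 of 219 without. Median genes per cell fell from 4636.5 in bin 1 to 3669 in bin 7 and stood at 4044 in bin 10.

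**Figure D4:**
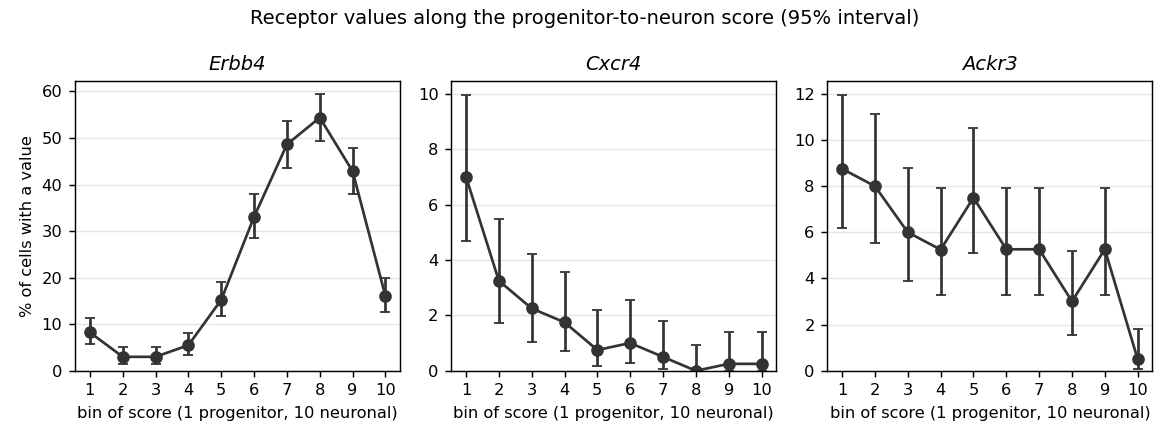
Share of cells with a value of each receptor, in percent with 95% intervals, in 10 bins of cells ordered from progenitor (1) to neuronal (10). Erbb4 tops at 54.4% in bin 8 and Cxcr4 is highest in bin 1 at 7.0%. Ackr3 is at 8.75% in bin 1, 3.01% in bin 8 and 0.501% in bin 10. Each panel has its own vertical scale.

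CXCR4 and ACKR3 act on the same ligand, but few cells had values of both genes. Only 4 cells did, which is 5.88% of cells with Cxcr4 (1.63 to 14.4) against 5.47% of cells without. In the ventricular zone class Ackr3 was in 4.44% of cells with Cxcr4 (2 of 45) and 8.07% of cells without, with overlapping intervals. Values this low limit what co-detection can show.

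Ackr3 was more frequent in cells with Erbb4 over all neuronal cells. Among neuronal cells, 6.78% of those with Erbb4 had Ackr3 (5.19 to 8.68), against 3.51% of those without (2.70 to 4.49). Within the GABAergic class the shares were 11.7% (8.38 to 15.8) and 9.82% (5.01 to 16.9), which overlapped. Within the cholinergic class they were 5.21% (1.71 to 11.7) and 1.13% (0.367 to 2.61), which also overlapped, while without thinning they were 8.93% and 1.17% and stood apart. Across the 17 clusters, levels of Erbb4 and Cxcr4 had Pearson's r of -0.58, Erbb4 and Ackr3 0.20, and Cxcr4 and Ackr3 0.25. Erbb4 had 0.78 with Lhx6 and 0.69 with Lhx8, and Ackr3 had 0.14 with Lhx6. These describe clusters of 1 library that share depth and scaling.

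Neuronal cells were also split by each of 20 interneuron genes. Cells with a value had Erbb4 more often for 16 of them and less often for 2 by intervals that stood apart. In the same split by each of 13830 genes, 6.91% stood apart with Erbb4 more frequent and 7.33% with it less frequent. Here and below, the genes of this background were not matched to the listed genes for the number of cells with a value. Examples among the 16 are Npas1 (58.9% with, 29.0% without), Calb1, which encodes calbindin (55.9% and 20.6%), and Nxph1, a neurexophilin (55.2% and 20.4%). Others are Maf (53.1% and 29.96%) and Sox6, which acts after Lhx6 (42.2% and 17.6%). Both Lhx6 (39.3% and 13.3%) and Lhx8 (35.0% and 27.4%) were also among the 16. The 2 genes on the other side were Zeb2, which steers MGE cells toward the cortex (25.1% and 38.4%), and Dlx6 (25.5% and 40.0%).

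Ackr3 was more frequent with 13 of the 20 genes and overlapped for 7, beside 1.79% of the 13830 genes with Ackr3 more frequent and 1.21% with it less frequent. It was in 11.4% of cells with Sst (7.36 to 16.6) and 4.02% without, in 10.9% with Maf and 3.64% without, and in 5.79% with Sp9 (4.81 to 6.91) and 0.659% without. With Zeb2 its share was 6.42% against 3.33%, the opposite side from Erbb4. With Npas1 it was 4.31% against 4.64%, which overlapped. Within the GABAergic class, where 16 genes could be split, Ackr3 overlapped for all 16 and Erbb4 for 15, the exception being Nxph1 (75.9% and 56.5%), beside 0.753% of 9299 genes with Erbb4 more frequent and 0.129% less. For Ackr3 these percentages in the class were 0.301% and 0.323%. For Cxcr4 the intervals overlapped in neuronal cells for all 20 genes, beside 0.347% of all genes with Cxcr4 more frequent and 0.0434% with it less frequent.

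Of the neuregulin-type ligands of ErbB4, 5 of 7 were measured, and the leading one, Nrg1, was highest in cells with little Erbb4. Nrg1 was in 82.9% of the Ebf1-rich LGE-like cluster 16 (72.5 to 90.6, level 2.30) and 45.2% of LGE-like cluster 11 (37.6 to 53.1, level 0.905), where Erbb4 was in 2.63% and 8.93% of cells. In the GABAergic cluster 2 Nrg1 was in 6.31% of cells (4.198 to 9.05), and no other cluster exceeded 22.5%. Within the LGE class Erbb4 was in 4.32% of cells with Nrg1 and 10.5% of cells without, by overlapping intervals. Within the GABAergic class it was in 85.2% (23 of 27) and 73.1%, which also overlapped.

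**Figure D5:**
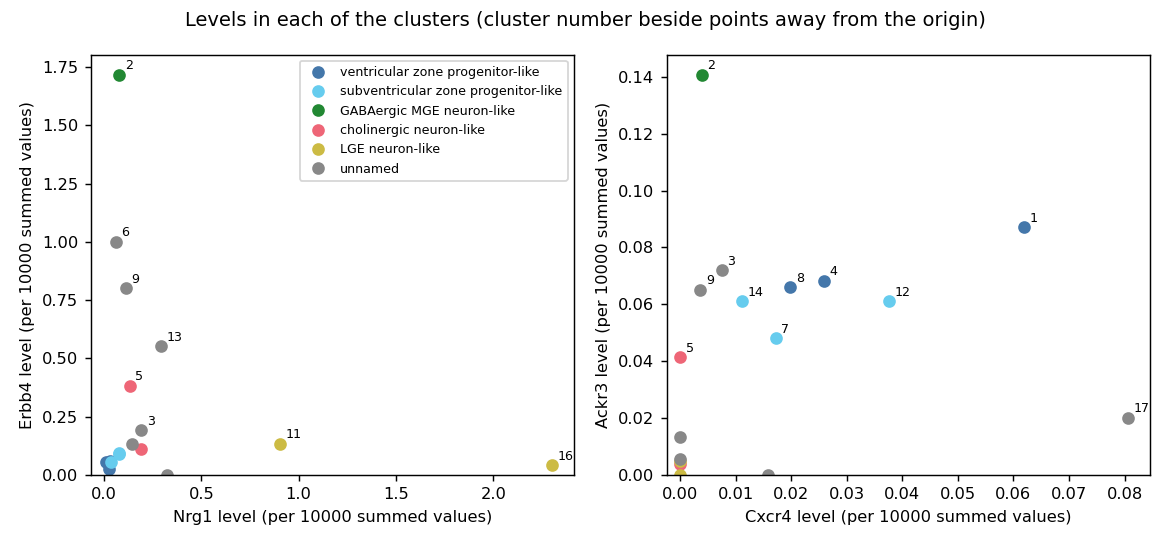
Levels per 10000 summed values in the 17 clusters, Erbb4 against Nrg1 on the left and Ackr3 against Cxcr4 on the right. Each point is a cluster, coloured by class, and a number marks points away from the origin. Clusters 11 and 16 have the highest Nrg1 (0.905 and 2.30) and little Erbb4, while cluster 2 has the highest Erbb4 (1.72) and Ackr3 (0.141).

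Nrg3 was in 15.4% of the cholinergic-like cluster 10 and 13.0% of cluster 13, and in 1.64% of the GABAergic class. Nrg2 was in 6.97% of LGE-like cells and 1.87% of GABAergic-like cells, and Hbegf, an EGF-family ligand of ErbB4, was spread over all clusters at 2.50% to 18.8%. Between the GABAergic and cholinergic classes, 4 of these ligands passed the minimum, of which Nrg3 was lower by 2-fold or more (log2 ratio -1.86) and none was higher. Their median log2 ratio was -0.90, beside 0.02 over all genes tested, of which 3.16% were higher and 4.02% lower by 2-fold or more.

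Among the other ErbB receptors only Erbb2, the co-receptor that lacks a ligand, had a row. It was in 90 cells, 80 of them in the ventricular zone class (7.37%, 5.88 to 9.09), and in 1 of 428 GABAergic-like cells. Its log2 ratio of neurons to ventricular zone progenitors was -5.45, with a level of 0.002 in the neurons. Erbb4 and Erbb2 were thus on opposite sides of this comparison.

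Genes for the cleavage and binding partners of ErbB4 were mostly present in all classes. Of 18 measured, 4 were higher and 5 lower in MGE neurons than in ventricular zone progenitors, with a median log2 ratio of -0.02 beside -0.22 over all genes tested. Of all those genes, 15.3% were higher and 26.1% lower by 2-fold or more. Nedd4, a ubiquitin ligase, had levels of 7.93 in neurons and 8.65 in progenitors, and Ncor1, the corepressor that carries the cleaved ErbB4 domain to the nucleus with Tab2, 2.89 and 2.55. Psenen, a gamma-secretase subunit, had a log2 ratio of 0.40. The higher genes were Grb2, an adaptor of receptor tyrosine kinases (1.24), Pik3r1 (1.70), Dlg4 (1.69), which encodes the synaptic scaffold PSD-95, and Psen2 (1.05). The lower genes were Yap1 (-5.62), a coactivator that binds the cleaved receptor, Adam17 (-1.62), the sheddase that cuts its outer part, Shc1 (-1.50), Wwox (-1.07) and Stat5b (-1.05). Between GABAergic-like and cholinergic-like cells 1 of 16 was higher by 2-fold or more, beside 3.16% of all genes. It was Pik3r1 (1.66), a regulatory subunit of PI3 kinase.

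The ligands of the chemokine receptors were sparse apart from Mif. Cxcl12 was in 13 cells, at most 1.53% of a cluster (cluster 4), and in no cell of the GABAergic cluster, so few of these cells had the main ligand of both receptors. Cxcl14, a chemokine reported to act on the CXCL12 and CXCR4 axis, was in 6.08% of the GABAergic cluster (level 0.190) and 5.19% of cluster 6. Its log2 ratio of the GABAergic to the cholinergic class was 5.37. That ratio rests on 2 cells with a value in cluster 5 and 1 in cluster 10, and was not recomputed under other settings. Mif, a cytokine that binds CXCR4 and ACKR3, was in at least 96.5% of the cells of every cluster, with levels of 16.4 in ventricular zone progenitors and 4.81 in MGE neurons.

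Of 18 genes for G proteins, arrestins and kinases of chemokine receptors, 4 were higher and 2 lower in neurons than in ventricular zone progenitors. Over all genes tested, 15.3% were higher and 26.1% lower by 2-fold or more. By level the leading members were Gnai2, an inhibitory G protein alpha subunit (5.75 in neurons and 8.40 in progenitors), Cdc42 (4.61 and 3.30), Gng2 (4.31 and 0.617, log2 ratio 2.81) and Gnb1 (3.98 and 2.78). The arrestins to which ACKR3 couples were on opposite sides, with log2 ratios of 1.27 for Arrb1 and -1.04 for Arrb2. The other higher genes were Gnao1 (1.61) and Pak1 (1.23), and the other lower gene was Rgs16 (-1.16), a brake on G protein signalling. Between the GABAergic and cholinergic classes 17 of 18 were within 2-fold, and Rgs16 was lower (-1.67), beside 4.02% of all genes lower.

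Erbb4 shared its side of the neuronal comparison with most other guidance receptors. Of 14 tested, 11 were higher in MGE neurons than in ventricular zone progenitors and 1 was lower, Ephb1 (log2 ratio -2.98), with a median log2 ratio of 2.70. Over all genes, 15.3% were higher and 26.1% lower, here and for the cytoskeleton genes below. Between GABAergic-like and cholinergic-like cells, 2 of 13 were higher and 3 lower. Over all genes, 3.16% were higher and 4.02% lower, here and in the later counts between these classes. Epha5, an ephrin receptor, was higher in the GABAergic class (9.39 and 0.953, log2 ratio 3.30), as was the Slit receptor gene Robo2 (1.91 and 0.634, log2 ratio 1.59). The lower genes were Gfra1, a GDNF co-receptor (-3.42), Dcc, a netrin receptor (-1.43), and Nrp1, a semaphorin receptor (-1.01). Plxna2, a semaphorin co-receptor, had a ratio of -0.38 and Epha4 one of 0.52. Of the 12 migration cytoskeleton genes, 6 were higher and 1 lower in neurons, among them Dcx, which encodes doublecortin (log2 ratio 5.10), and Tubb3 (4.06), and the lower gene was Nde1 (-4.53). Between the neuron classes 10 of 12 stayed within 2-fold, with Srgap2 higher (2.27) and Nde1 lower (-1.28) in the GABAergic class. The MGE interneuron factors, most of which also served as markers or score genes, had 5 of 16 higher in the GABAergic class, among them Maf (4.22), Npas1 (3.74), Sox6 (1.47) and Satb1 (1.44). The 3 lower were Lhx8 (-2.04), Nkx2-1 (-1.57) and Dlx6 (-1.21).

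The genes most like each receptor were ranked by Pearson's r of log2 levels over the 17 clusters. For Erbb4, out of 8222 genes, they were Hspa1a (0.92), Calb1 (0.92), Ripor2 (0.88), Csdc2 (0.87), Nxph1 (0.87) and Carmil1 (0.85), and Ripor2, which encodes a regulator of the GTPase RhoA, had its highest level in cluster 2 as Erbb4 did. For Cxcr4 they were Fst (0.91), Pan2, Gamt, Epha3, Sp2 and Rbbp5, and for Ackr3 Epdr1 (0.89), Eif2d, Dleu2, Qk, S100a10 and Npas3. With Spearman's rho only 2, 0 and 2 of these 6 were ranked again for Erbb4, Cxcr4 and Ackr3, so the Cxcr4 list in particular is not stable.

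Cells with 2 or more markers of other cell types that use CXCL12 receptors were few, with or without a receptor value. No cell with Erbb4, Cxcr4 or Ackr3 had 2 or more markers of endothelial, mural or meningeal cells, although only 3 of 8, 2 of 6 and 3 of 6 of these markers were measured. Of the 3927 cells without Cxcr4, 3, 8 and 2 had them (0.0764%, 0.204% and 0.0509%). At such rates, their absence from the 68 cells with Cxcr4 cannot show whether these cell types contribute. For microglia only Aif1 of 8 had a row, and it was at 0 in the cells with Cxcr4. Of the 68 cells with Cxcr4, 4 had 2 or more Cajal-Retzius markers (5.88%, against 1.197% of other cells) and 3 had 2 or more glutamatergic markers (4.41% against 1.04%). The summed mural markers stood at 0.470 per 10000 in cells with Cxcr4 and 0.152 in cells without, and their part in the Cxcr4 pattern was not tested. Hemoglobin genes, which these cells should lack, lay in cells with and without each receptor between 1.51 and 1.66 per 10000.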

How the data were processed

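Per the labels, the cells were dissociated from microdissected tissue and made into 10x Chromium libraries by MULTI-seq. The submitters' processing notes name bcl2fastq, Cell Ranger 3.0.2 and the mouse build GRCm38. The deposited table holds whole numbers that the authors appear to have adjusted for depth, judged only from the narrow range of cell totals (10475 to 14196, median 12505), and they were treated as a score. How they were adjusted is not stated in the labels. No count model was run, since the values are not counts and 1 pooled library gives no replicates.

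The 3 members and all gene lists were chosen with earlier results of these data known. Doublets were called with scanpy 1.11.5 (Scrublet, expected rate 5%), which marked 6 cells (0.150%). A number of calls this low leaves the true doublet rate unknown. For clustering, values were scaled to 10000 and log-transformed. Then 2000 variable genes, with the members left out, 30 principal components, 15 neighbours and Leiden resolution 1 gave the clusters. A cluster took the name of the class with the highest mean standardised marker level among classes with 3 or more markers in 10% of its cells that exceeded other cells 1.5-fold, and lost it where its top 10 genes held more markers of another class. This scoring rule was set with cluster values known. Of 120 markers in 16 lists, 86 were measured.

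Genes named besides the members were, for each list, up to 4 with the highest level, and the 6 most like each member by correlation of log2(level + 0.1) among genes of mean level at least 0.1, plus genes used to split or describe cells. List genes outside this rule, such as those behind counts of 5 or fewer, were named after their values were seen, and the promoter motifs in capitals were likewise chosen afterwards. Ratios used genes with a summed value of at least 30. Splits by a gene needed 20 cells on each side, for the listed genes and for all genes alike, and the latter were added after the data were seen. The class ratios and the ranking of genes by likeness were tested on simulated data, while the clustering and naming were not. Alternatives changed the resolution, seed, variable genes, doublet removal, scaling, thinning, detection value and score border.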

Additional observations from a re-analysis of the deposited data

How the results depend on the processing

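No paired analysis was possible because there was 1 pooled library. Of 264 recomputed values 194 stayed close to the reported one, and none of the log2 ratios past 2-fold changed sign, while the Ackr3 log2 ratio of neurons to progenitors, within 2-fold, lay on both sides of 0 (-0.37 to 0.09). The Erbb4 log2 ratio of the GABAergic to the cholinergic class (2.66) moved most, to 0.54 with 1000 variable genes, 0.70 without cells in which the value 1 is rare, 0.85 with Leiden seed 1, 0.89 at resolution 0.5 (these 4 under 2-fold), 1.05 with the members kept and 1.07 at resolution 2. The Erbb4 share in the GABAergic and cholinergic classes became 54.6% and 44.0% with 1000 variable genes, 50.7% and 36.2% without the rare-value cells, 52.2% and 35.2% with seed 1, 68.2% and 44.8% at resolution 0.5, 53.2% and 32.6% with the members kept, 59.2% and 32.7% at resolution 2, 54.5% and 14.2% with 4000 variable genes, and 50.5% and 12.6% with no doublet removal. In these clusterings other cells took the class names, and the cause beyond that was not tested. Ackr3 in the GABAergic class was 7.98% at resolution 2 and 7.10% with 4000 variable genes, in the cholinergic class 0.872% at resolution 2, and its log2 ratio 3.18 and 1.83. The Cxcr4 log2 ratio of neurons to ventricular zone progenitors was -4.03 with no doublet removal.

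With no thinning Erbb4 was in 79.9% of the GABAergic class, 5.99% of the ventricular zone class and 42.1% of cells with Lhx6 and Lhx8. With the score above its median it was in 56.1% of cells with Lhx6 only and 44.4% with both, and Cxcr4 was in 0% of cells with Lhx8 only. Requiring a value of at least 2 lowers every class share by construction. It was also asked of Lhx6 and Lhx8, so the gates then held other cells. Erbb4 was then in 46.7% of the GABAergic, 5.93% of the cholinergic and 0.0921% of the ventricular zone class, and in 26.4% (Lhx6 only), 18.6% (both) and 9.54% (Lhx8 only). Cxcr4 was at 0% in the GABAergic and ventricular zone classes and in all 4 gates. Ackr3 was in 1.64%, 0.185% and 0.552% of the same 3 classes and in 0.259%, 0.606% and 0% of these gates, which turned the order of the first 2. Of the 6 genes most like a member, those with a mean level of at least 0.5 shared 3 for Erbb4, 0 for Cxcr4 and 2 for Ackr3, partly because fewer genes could be ranked. In 5 bins the highest shares were 51.3% for Erbb4, 5.13% for Cxcr4 and 8.39% for Ackr3. Nearly all Cxcr4 values were 1, the lowest step of the table.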
